A study of Mus musculus with 3 samples.

Results

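Tff3 and Rusc2 were examined in the livers of male C57BL/6J mice, because their array signals were higher after iron supplementation than after the high-fat diet alone. Members were all probe sets that the platform annotation assigned to Tff3 only or to Rusc2 only. This gave 1 probe set of Tff3 and 2 of Rusc2, that is, 2 of the 18193 genes named by a probe set with 1 gene. From 6 weeks of age the mice were fed for 15 weeks with high-fat chow carrying 0.023% of its weight as the iron compound sodium ferrous citrate (HF+SFC), with the same chow lacking this supplement (HF; D12492, 60% of energy as fat) or a control diet (Control; D12450B, 10% of energy as fat). The labels give an age of 21 months, which does not match these times. The material of all mice of a group was mixed and hybridised to 1 Affymetrix mouse expression array, so the series holds 3 arrays and no replicates, and no test between diets was possible. Values are MAS5 signals, which are intensities on a linear scale, and all differences are log2 ratios or folds between pools. Since both genes were selected on the signals of HF+SFC and HF, every ratio below uses an array that chose them and is given as a description. In whole liver, fewer cells of a type and less RNA per cell cannot be told apart.

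Tff3 encodes trefoil factor 3, also called intestinal trefoil factor, a small secreted peptide folded into a trefoil domain by disulfide bonds. It is best known from goblet cells, where it is released with mucins and takes part in the repair of mucosal surfaces, and in the liver it is known from bile duct epithelium. Rusc2, also called iporin, encodes a large protein with a RUN and an SH3 domain. In human cells it binds the Golgi GTPase Rab1 and the Golgi matrix protein GM130, and it takes part in the transport of vesicles that carry the autophagy protein ATG9A and are formed by the adaptor complex AP-4.

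The promoter windows of Rusc2 are shown because its start sites lie in regions of different base composition, and the array values do not tell which start the measured RNA came from. RefSeq sequence of GRCm38.p6 held 3 windows of 300 bases for Rusc2, from 250 bases before to 50 bases after a start, of which the first and the last are printed 5′ to 3′ with the 50 bases from the start onward in capitals. Tff3 was not in the table used.
Rusc2 upstream start, chr4:43381732-43382031, plus strand: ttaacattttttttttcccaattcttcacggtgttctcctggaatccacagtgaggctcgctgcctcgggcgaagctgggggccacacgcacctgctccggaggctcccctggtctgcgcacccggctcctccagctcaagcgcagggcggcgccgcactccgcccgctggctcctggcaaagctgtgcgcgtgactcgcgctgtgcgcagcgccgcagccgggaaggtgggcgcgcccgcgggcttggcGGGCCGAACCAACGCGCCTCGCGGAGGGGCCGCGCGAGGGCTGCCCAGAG
Rusc2 downstream start, chr4:43406252-43406551, plus strand: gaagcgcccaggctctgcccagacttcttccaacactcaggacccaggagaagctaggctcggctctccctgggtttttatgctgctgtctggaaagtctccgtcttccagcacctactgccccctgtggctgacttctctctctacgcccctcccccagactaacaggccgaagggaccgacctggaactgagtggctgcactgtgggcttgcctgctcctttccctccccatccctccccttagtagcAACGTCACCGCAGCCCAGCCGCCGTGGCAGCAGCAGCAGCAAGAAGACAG
The upstream window contained 70.0% G and C with 35 CG dinucleotides. The downstream window contained 61.3% G and C with 10 CG dinucleotides. Over all 32851 windows the medians were 52.7% and 7. On both strands, none of the 3 Rusc2 windows held the E-box CACGTG (7.15% of all windows), the nuclear receptor motif AGGTCA (16.3%), the FOXO site TGTTTAC (3.65%) or the TATA box TATAAA (13.6%), which says only that these letters were not found there.

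Tff3 showed the lowest signal in HF-fed mice. Its probe set had a signal of 515 in HF+SFC, 151 in HF and 1290 in Control. Iron-supplemented livers thus lay between the other pools, above HF and below Control. Compared to HF, the signal was 3.40-fold higher in HF+SFC (log2 ratio 1.77), and compared to Control it was 8.53-fold lower in HF (log2 ratio -3.09). HF+SFC reached 39.9% of the Control signal, which is 2.51-fold lower (log2 ratio -1.33). With 1 probe set, the agreement within Tff3 could not be examined.

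Rusc2 followed the same order in both probe sets. The brighter one had a signal of 158 in HF+SFC, 47.4 in HF and 348 in Control. The other one, whose suffix (_s_at) marks probes that match more than 1 transcript, had a signal of 121 in HF+SFC, 31.4 in HF and 155 in Control. In HF both lay below 87.3, the median signal of that array, where MAS5 signals are noisy, so the folds against HF that follow are imprecise. Compared to HF, the signal was 3.33-fold higher in HF+SFC by the brighter probe set and 3.84-fold higher by the other. Compared to Control, it was 7.35-fold lower in HF by the brighter and 4.92-fold lower by the other. Setting signals under the array median to that median reduced the log2 ratio of HF+SFC over HF to 0.86 and 0.47, of which the second is inside 1.5-fold.

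**Figure D1:**
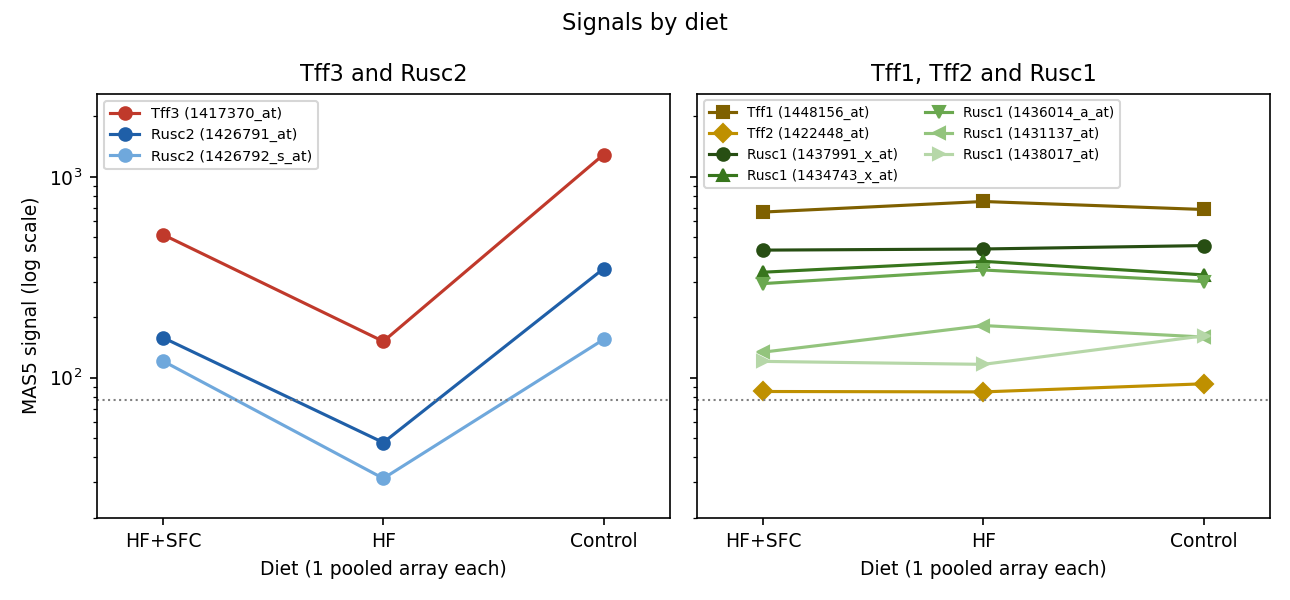
MAS5 signal (y axis, log scale) on the HF+SFC, HF and Control arrays (x axis, 1 pool each) for the probe sets of Tff3 and Rusc2 (left) and of Tff1, Tff2 and Rusc1 (right). Points are single array values with no error, lines join 1 probe set, and the dotted line marks the kept level of 76.9. The 3 probe sets on the left are lowest in HF, where Tff3 has a signal of 151, whereas Tff1 on the right lies between 667 and 753 on all arrays.

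The agreement between the Rusc2 probe sets differed by comparison. Both were annotated to the same accession (BC024790) and were read on the same arrays, so they are not replicates of a diet. For HF+SFC over HF the log2 ratios were 1.74 and 1.94, with a mean of 1.84 ± 0.15 (SD over 2 probe sets). Their gap of 0.21 was close to the median gap of 0.22 in the 2914 genes with 2 kept probe sets. In the 346 such genes with a mean signal like that of Rusc2, the median gap was 0.44. For HF over Control the log2 ratios were -2.88 and -2.30 (mean -2.59 ± 0.41, SD). This gap of 0.58 was above the median gap of 0.26 and also above the 0.48 found in the 346 genes of like signal. The largest gap was found for HF+SFC over Control, with log2 ratios of -1.14 and -0.36 (mean -0.75 ± 0.55, SD). This gap of 0.78 was above the median gap of 0.25 and above the 0.53 found in the genes of like signal. The brighter signal was 1.31 times the other in HF+SFC, 1.51 times in HF and 2.25 times in Control. The probe sets thus differed most on the Control array, which both wider gaps use. By the brighter probe set HF+SFC reached 45.3% of the Control signal, and by the other 78.0%. Whether Rusc2 in HF+SFC remained below Control by more than 1.5-fold therefore depended on the probe set.

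Both genes stood far from most other genes, as their selection required. Genes were read through their brightest probe set and kept where its mean log2 signal lay in the upper 50% of probe sets, at a signal of 76.9 or more, which left 11341 genes. Both Tff3 and Rusc2 were higher by 1.5-fold or more in HF+SFC than in HF, as were 2.88% of the kept genes, while 5.33% were lower by as much. Both were lower by 1.5-fold or more in HF than in Control, as were 5.84%, while 11.3% were higher. Both were also lower in HF+SFC than in Control, as were 6.88%, while 9.2% were higher. Since these contrasts chose the genes, nothing is read from these shares. Both probe sets of Rusc2 passed in HF+SFC over HF, as did 0.343% of the 2914 genes with 2 kept probe sets (1.2% had both lower). Both passed in HF over Control too, as did 2.13% (4.56% had both higher). For HF+SFC over Control, where 2.37% had both lower and 3.4% both higher, 1 of the 2 passed. In HF both Rusc2 probe sets lay below the kept level, at 47.4 and 31.4. They were thus kept through their signals on the other arrays. Since Rusc2 was chosen on these arrays, nothing is read from these shares of probe sets either.

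Because the spread of ratios depends on signal, each probe set was also set beside genes of like brightness, within 0.5 of its mean log2 signal. Tff3 and Rusc2 were chosen on these arrays, so the ranks that follow were shaped by that choice. They are a description, and nothing is read from them. For Tff3 there were 2088 such genes, and the central 95% of their log2 ratios of HF+SFC over HF ran from -0.57 to 0.49. None of these 2088 genes reached the log2 ratio of 1.77, and 13 of all other kept genes did. For HF over Control the central 95% ran from -0.73 to 0.94, and 2 were as low as Tff3. For the brighter probe set of Rusc2, the 1870 genes of like signal spread more widely, from -1.05 to 0.94 for HF+SFC over HF, and 5 of them were as high. For HF over Control they ran from -1.09 to 1.65, and 1 was as low. For the dimmer probe set, 6 of 1261 genes were as high in HF+SFC over HF and 3 as low in HF over Control. In HF+SFC over Control, however, 348 of the 1261 were as low as its log2 ratio of -0.36, which lay inside their central 95% of -1.37 to 1.53. Over the 5020 genes with 2 or more kept probe sets, log2 ratios within a gene had an SD of 0.33 for HF+SFC over HF, 0.36 for HF+SFC over Control and 0.35 for HF over Control.

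**Figure D2:**
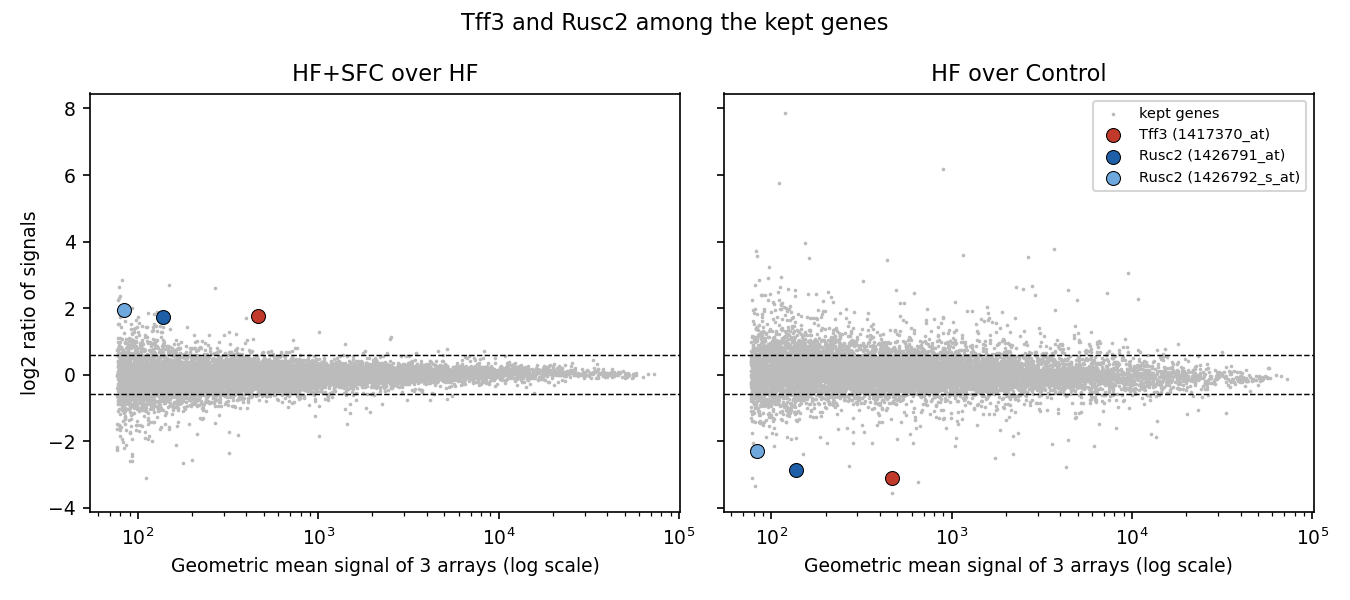
Log2 ratio (y axis) against the geometric mean signal of the 3 arrays (x axis, log scale) for HF+SFC over HF (left) and HF over Control (right). Grey points are the 11341 kept genes, coloured points the probe sets of Tff3 and Rusc2, and dashed lines mark 1.5-fold. Tff3 lies at 1.77 on the left and -3.09 on the right, and the grey band is wider at the signals of Rusc2 than at that of Tff3.

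The relatives of both genes were level by comparison. Tff1, a trefoil peptide of the stomach surface, had a signal of 667 in HF+SFC, 753 in HF and 687 in Control. Tff2, a trefoil peptide of gastric mucous neck cells, had a signal of 85.2 in HF+SFC, 84.8 in HF and 93.1 in Control. All log2 ratios of Tff1 and Tff2 lay between -0.17 and 0.13. Rusc1, the paralogue of Rusc2, had 5 probe sets, and the brightest had a signal of 431 in HF+SFC, 437 in HF and 454 in Control. Its 5 log2 ratios ran from -0.44 to 0.05 for HF+SFC over HF and from -0.47 to 0.22 for HF over Control. None of the 5 was beyond 1.5-fold in the deposited signals. Under quantile scaling the dimmest one stood at -0.59 for HF over Control, just beyond 1.5-fold. The sign of the brightest one for HF+SFC over HF turned under quantile, median and lowess scaling.

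The genes next to Tff3 and Rusc2 on their chromosomes were read as well. Tff3 lies on mouse chromosome 17 beside Tff2 and Tff1, and 4 of the 6 genes flanking it were on the array. Its neighbour on the other side, Abcg1, a transporter for cholesterol efflux, had a signal of 460 in HF+SFC, 713 in HF and 412 in Control by its brighter probe set, and was thus highest where Tff3 was lowest. Its other probe set gave log2 ratios of 0.09 for HF+SFC over HF and 0.21 for HF over Control, both inside 1.5-fold. Rusc2 lies on chromosome 4, and 1 of the 6 genes flanking it was on the array. This was Tesk1, a kinase of the actin cytoskeleton, with a signal of 364 in HF+SFC, 267 in HF and 530 in Control. Tesk1 had the same order as Rusc2 with smaller differences, 1.36-fold higher in HF+SFC than in HF and 1.99-fold lower in HF than in Control.

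The genes most like Tff3 and Rusc2 were found from the distance between genes in the log2 ratios of HF+SFC over HF and HF over Control, which share the HF array, over 3 arrays. The nearest gene to both was Atoh8, a basic helix-loop-helix transcription factor, at a distance of 0.14 from Tff3 and 0.08 from Rusc2. Its signal was 149 in HF+SFC, 44.2 in HF and 342 in Control. Tff3 and Rusc2 followed as the second nearest of each other, at a distance of 0.22. Since these ratios chose Tff3 and Rusc2, the distances are a description. The next genes lay farther off. Lbhd2, with a signal of 134 in HF+SFC, 26.2 in HF and 141 in Control, was 0.89 from Tff3 and 0.77 from Rusc2. Zdhhc12, a palmitoyltransferase, had a signal of 475 in HF+SFC, 78.0 in HF and 523 in Control and was 0.91 and 0.88 away. Thoc2l had a signal of 129 in HF+SFC, 20.8 in HF and 179 in Control and was 0.86 and 0.92 away. In these 3 genes HF+SFC was closer to Control than in Tff3 and in the brighter probe set of Rusc2, at 95% of the Control signal in Lbhd2, 90.8% in Zdhhc12 and 72.0% in Thoc2l. Atoh8 and these 3 genes had 1 probe set each. In HF all 4 lay below the array median of 87.3, and Atoh8, Lbhd2 and Thoc2l were kept through their signals on the other arrays, so their ratios against HF are imprecise.

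**Figure D3:**
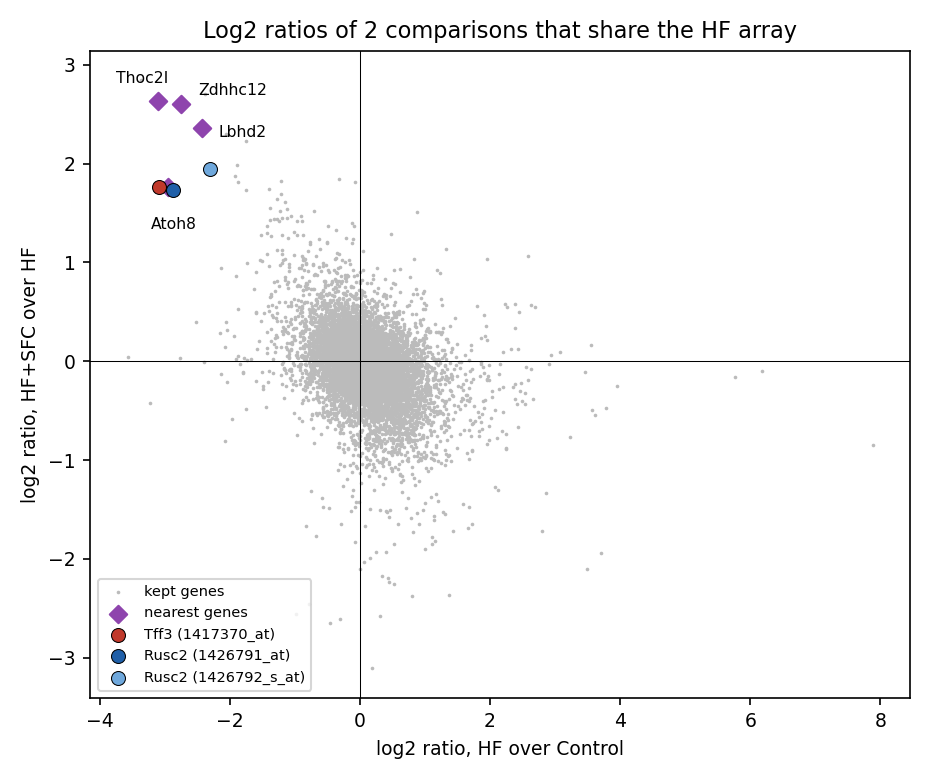
The y axis gives the log2 ratio of HF+SFC over HF and the x axis that of HF over Control, which share the HF array, so that an error in HF moves a gene along a falling diagonal. Grey points are kept genes, purple diamonds the genes nearest to Tff3 and Rusc2, and coloured points their probe sets. Atoh8, Tff3 and the brighter Rusc2 probe set lie together at ratios near 1.77 and -2.95, away from the other genes.

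The partners of Rusc2 in vesicle traffic were mostly measured at higher signals, and few were beyond 1.5-fold between diets. Of 18 genes of Rab1, the Golgi and AP-4 on the array, 17 were kept, and 0 were beyond 1.5-fold in HF+SFC over HF. Their median log2 ratio was -0.005, against -0.007 over all kept genes, and its sign turned with the scaling. Over all kept genes 2.88% were higher and 5.33% lower by 1.5-fold or more in that comparison. Few calls would thus be found among 17 genes at these shares. Gorasp1, a Golgi stacking protein, was highest at 0.43, and Atg9a, the vesicle cargo, stood at 0.27. In HF over Control 1 of 17 was lower by 1.5-fold or more, against 5.84% of all kept genes, and 0 were higher, against 11.3%. The median log2 ratio of the 17 was -0.18, against 0.03 over all kept genes. The lower one was the AP-4 subunit Ap4m1, with a signal of 158 in HF+SFC, 179 in HF and 307 in Control. It was lower in HF+SFC over Control too, at -0.96 on the log2 scale. Among RUN domain proteins other than Rusc2, 0 of 13 kept genes were beyond 1.5-fold in HF+SFC over HF, with log2 ratios from -0.43 for Plekhm1, a lysosomal adaptor, to 0.26 for Rundc1. In HF over Control 2 of 13 were higher, Rubcn at 0.86 and Rundc3a at 1.03 on the log2 scale, which were named after their values were seen, and 0 were lower, against 11.3% and 5.84% of all kept genes.

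Genes of proteins reported to bind Tff3 and genes of mucous secretory cells mostly had low mean signals. All 6 genes whose proteins are reported to bind the peptide lay below the kept level in their mean over arrays, with single signals from 1.68 to 115. Of 14 genes of mucous secretory cells 13 lay below it too, with signals from 2.49 to 90.5. The exception was Foxa3, a transcription factor that hepatocytes also use, with a signal of 3200 in HF+SFC, 2502 in HF and 3840 in Control. Its log2 ratios of 0.36 for HF+SFC over HF and -0.62 for HF over Control had the signs of Tff3. Of 12 bile duct markers 7 were kept, and in HF+SFC over HF 0 were higher and 2 lower, Krt19 and Epcam. The shares over all kept genes were 2.88% higher and 5.33% lower. Krt19, a duct keratin, had a signal of 56.4 in HF+SFC, 105 in HF and 80.4 in Control. Krt7, which lay below the kept level, had a signal of 9.41 in HF+SFC, 28.0 in HF and 10.5 in Control. The summed signal of the 12 bile duct markers was 1230 in HF+SFC, 1470 in HF and 1084 in Control, highest where Tff3 was lowest. In HF the largest parts of that sum were Bicc1 at 411, Cd24a at 310 and Pkhd1 at 214. In HF over Control 2 of the 7 kept were higher and 1 lower, against 11.3% and 5.84% of all kept genes. With 7 genes these counts are a description. The lower one was Sox9, a duct transcription factor, with a signal of 122 in HF+SFC, 91.9 in HF and 163 in Control, which is the order of Tff3. Prom1, singled out after its values were seen, had that order too, with 87.4 in HF+SFC, 77.8 in HF and 92.5 in Control. Markers of intestine and pancreas lay below the kept level in 9 of 13, with Cpa1 at 2.83 to 13.8 and Reg3g at 2.3 to 4.37, and their sum was 15318 in HF+SFC, 16068 in HF and 10697 in Control. Most of that sum came from Fabp2, an intestinal fatty acid binding protein singled out after its values were seen, with a signal of 11996 in HF+SFC, 13326 in HF and 7980 in Control. The other kept markers of that list did not share 1 order. Lgals4 had a signal of 338 in HF+SFC, 443 in HF and 809 in Control. Cela1 had 2631 in HF+SFC, 1950 in HF and 1584 in Control, and Prss2 had 66.0, 109 and 88.8.

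Other features of the pools also differed between diets, some in the order of Tff3 and Rusc2 and others not. Their part in the signals of both genes was not tested. The labelled tissue held its markers, since all 10 hepatocyte markers on the array were kept. Of these, 0 were beyond 1.5-fold in HF+SFC over HF. In HF over Control 1 was lower by 1.5-fold or more, Hnf4a at -0.61 on the log2 scale. Under quantile and lowess scaling that count was 0. Macrophage markers were highest in HF, opposite to both genes, with a summed signal of 24186 in HF+SFC, 33371 in HF and 24573 in Control. All 15 were above 0 in HF over Control and below 0 in HF+SFC over HF, where 6 were lower by 1.5-fold or more. Stellate cell markers summed to 20185 in HF+SFC, 26573 in HF and 17563 in Control, and 6 of 12 had lower signals by 1.5-fold or more with iron than with HF alone. Of 15 core clock genes 5 were higher and 4 lower in HF than in Control, and 0 were beyond 1.5-fold in HF+SFC over HF. Over all kept genes 11.3% were higher and 5.84% lower in HF over Control, and 2.88% were higher and 5.33% lower in HF+SFC over HF, so that few calls among 15 genes would be found at these shares in the second comparison. Of 13 fasting and insulin responsive genes, 6 were lower and 2 higher in HF than in Control, among the lower ones Pdk4, which restrains glucose oxidation, with a signal of 253 in HF+SFC, 340 in HF and 3165 in Control. In HF+SFC over HF 1 of the 13 was higher, the insulin receptor substrate Irs2, with a signal of 301 in HF+SFC, 151 in HF and 500 in Control, which is the order seen in Tff3 and Rusc2. The 3′ to 5′ signal ratio, a sign of RNA integrity, was smallest on the HF array. For Actb it was 1.73 in HF+SFC, 1.65 in HF and 1.84 in Control. For Pcx it was 3.89 in HF+SFC, 3.23 in HF and 4.28 in Control. For Gapdh it was 0.708 in HF+SFC, 0.680 in HF and 0.708 in Control.

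**Figure D4:**
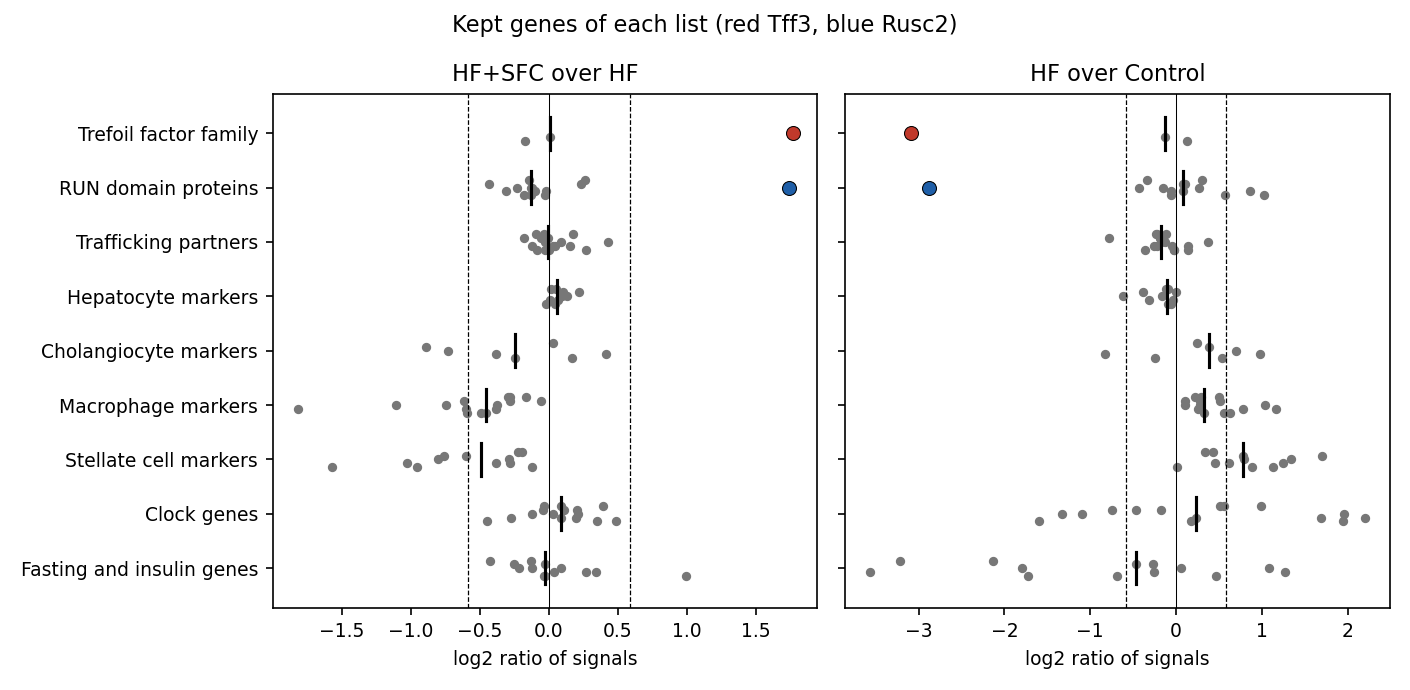
Log2 ratio (x axis) of the kept genes of 9 lists (rows) for HF+SFC over HF (left) and HF over Control (right). Grey points are genes, black bars medians that include Tff3 and Rusc2, dashed lines 1.5-fold, the red point is Tff3 and the blue point the brighter Rusc2 probe set. Both lie apart from the other trefoil and RUN domain genes, and all 15 macrophage markers lie below 0 on the left and above 0 on the right.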

How the data were processed

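Liver RNA of mice fed with HF+SFC, HF or Control diet was labelled as biotinylated cRNA and hybridised to 3 arrays, 1 pool per group. The deposited intensity values are MAS5 signals that the authors had scaled to one target, since the 2% trimmed mean over the 45101 probe sets was 500.004 on every array. MAS5 is named in the submitters' processing notes, its version is not given in the sources used here, and detection calls were not used here. This scaling removes differences in total signal between arrays, and signals of dim probe sets are noisy. The number of arrays limits the precision.

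Gene names came from the annotation of the platform, and both Entrez identifiers were found in a RefSeq table of GRCm38.p6. The measure was the log2 ratio of 2 arrays, and genes at or beyond 1.5-fold were counted without a test. Named genes were all probe sets of Tff3 and Rusc2, their family members and 3 flanking genes on each side. The 5 genes with the nearest ratios and up to 3 kept genes of each list were named too. Further genes of some lists, among them bile duct, intestine and pancreas markers, were named outside this rule. The members and lists were chosen with earlier results of these data known. Alternatives were quantile, median and lowess scaling (fraction 0.3), a pseudocount of 16, a floor at the array median, the median over probe sets, no filter, the upper 25% of signal and a 2-fold threshold. Steps were tested on simulated data with Python 3.11.15 and statsmodels 0.14.6. The simulated noise was the same at every signal, so that test does not cover the wider spread of dim probe sets.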

Additional observations from a re-analysis of the deposited data

How the results depend on the processing

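For Tff3 and Rusc2, 0 of the 48 log2 ratios recomputed under the alternatives changed sign, and 40 moved by less than the SD between probe sets of one gene. Those of Tff3 ranged from 1.67 to 1.88 for HF+SFC over HF, from -3.19 to -2.96 for HF over Control and from -1.33 to -1.30 for HF+SFC over Control. The dimmer Rusc2 signals gave the other 8. With a floor at the array median, the brighter Rusc2 probe set stood at 0.86 for HF+SFC over HF and -2.0 for HF over Control, and the other one at 0.47 and -0.83. With a pseudocount of 16, the brighter stood at -2.52 for HF over Control, and the other one at 1.53 for HF+SFC over HF and -1.85 for HF over Control. As the median over its probe sets, Rusc2 stood at -0.75 for HF+SFC over Control.

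Counts of genes beyond 1.5-fold depended more on the settings. For HF+SFC over HF, 327 genes were higher and 605 lower. Quantile scaling gave 452 and 456, lowess scaling 449 and 461, and median centring, which moved the median of all kept genes by 0.12, gave 535 and 397. For HF over Control, with 1282 higher and 662 lower, median centring gave 980 and 954 and quantile scaling 1078 and 839. Without a filter the counts were 2330 higher and 3028 lower for HF+SFC over HF, 3699 and 2755 for HF over Control, and 3228 and 3072 for HF+SFC over Control. In the upper 25% of signal they were 39 and 76, 444 and 283, and 410 and 306. At 2-fold they were 87 and 135, 391 and 192, and 319 and 208.

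Of 488 alternative values of the lists and nearest genes, 437 stayed the same within these limits. The median of the mucous secretory genes for HF over Control turned to 0.67 without a filter, where it covered 14 genes in place of 1. Under quantile scaling 4 of the 5 genes nearest to Rusc2 were shared. No paired analysis was possible because each group has 1 array. With 1 pool per diet, cause and error of each difference cannot be separated, and the cause of the changes above was not tested.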

Other observations

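Below the kept level, some genes named after their values were seen were lowest in HF, as were Tff3 and Rusc2. Spdef, a transcription factor of goblet cells, had a signal of 47.8 in HF+SFC, 17.0 in HF and 80.1 in Control. Umodl1, which flanks Tff3 beyond Abcg1, had a signal of 50.6 in HF+SFC, 2.67 in HF and 37.0 in Control, and was thus highest with iron, unlike Tff3 and Rusc2. Cela2a, a pancreatic elastase, had a signal of 49.5 in HF+SFC, 12.9 in HF and 86.3 in Control. Tepsin, an accessory protein of AP-4, had a signal of 27.7 in HF+SFC, 21.1 in HF and 123 in Control. Their mean signals lay below the kept level, and no fold is given for them.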
